A study of Mus musculus with 8 samples.

Results

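The liver transcripts of 10 genes that turn cholesterol into conjugated bile acids are described here, out of 34547 genes summed from the deposited files. The genes were listed by name for their known place in the pathway: the classic route (Cyp7a1, Cyp8b1), the alternative oxysterol route (Cyp27a1, Cyp7b1, Cyp39a1), the shared ring steps (Hsd3b7, Akr1d1, Akr1c6), conjugation (Baat) and muricholate formation (Cyp2c70). All 10 had enough reads to enter the test of 13678 genes.

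The Nudt7 livers came from 4 C57BL/6J mice given AAV (adeno-associated virus, used to bring a gene into hepatocytes) with mouse Nudt7 as its cargo, which encodes a peroxisomal hydrolase of coenzyme A and acyl-CoAs. The control livers came from 4 C57BL/6J mice given the same dose of AAV with GFP, a fluorescent protein, so that both groups carried a virus and a transgene. Every mouse was injected through the tail vein at 8 weeks of age with 2.5e+11 particles and fasted for 24 h before liver collection, which followed the injection by 3 to 4 weeks, at an age of 11 to 12 weeks. The labels name neither the promoter of the vector nor the sex, cage, batch or pairing of the mice, and there was no uninjected or fed group. The comparison asks what Nudt7 overexpression does to the transcriptome of the fasted liver.

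Bile acid synthesis begins with hydroxylation of the sterol ring by Cyp7a1 in the endoplasmic reticulum (the classic route) or with hydroxylation of the side chain by mitochondrial Cyp27a1 and other oxysterol-forming enzymes, followed by Cyp7b1 or Cyp39a1 (the alternative route). The ring is then rearranged and reduced, the side chain is shortened in peroxisomes as a CoA ester, and the acyl group is passed to taurine or glycine. Bile acids returning from the gut repress Cyp7a1 and Cyp8b1 through the nuclear receptor Nr1h4 (FXR), through Nr0b2 (SHP) in the liver, and through the intestinal hormone Fgf15 acting on Fgfr4 and Klb.

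In the Nudt7 livers, 0 of the 10 genes were higher and 0 were lower at an edgeR quasi-likelihood adjusted p under 0.05. Over all genes tested, 0.0439% were called higher (6 genes) and 0.0731% lower (10 genes). At an unadjusted p under 0.05 there were 3 of the 10, namely Cyp39a1, Hsd3b7 and Akr1c6, against 8.28% of all genes tested. The Nudt7 and GFP livers did not overlap for 2 of the 10 (Hsd3b7 above and Cyp39a1 below), against 5.75% of all genes tested. Log2 fold changes of the 10 genes ran from -0.85 to 1.24 with a median of 0.17 and 6 above 0, beside a median of -0.00089 and 49.8% above 0 over all genes tested. Under the alternatives, 5 to 8 of the 10 were above 0. DESeq2, run as an alternative, called Cyp39a1 lower, among 64 genes that it called lower. DESeq2 gave 22643 genes a p-value but adjusted p over fewer, after its own filter on mean counts. The livers are bulk tissue, so fewer cells of a type and less RNA per cell cannot be told apart.

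The libraries held 11187806 to 23640734 estimated reads each, with 18405 to 19221 genes detected. Nudt7 itself stood at 1301, 1599, 3569 and 1555 CPM (read counts scaled to the library size) in Nudt7 livers and at 60.7 to 79.9 CPM in GFP livers (log2 fold change 4.79, SE 0.33, edgeR adjusted p = 0.000122). The Nudt7 replicate 3 library stood apart from the others. Its score on the first principal component was 63.1, against -19.9 to 2.83 in the other 7. Relative to its own group, genes with short transcripts had a median difference of 0.42 log2 units in it and genes with long transcripts one of -0.35, and its red blood cell markers summed to 1813 CPM, against 303 to 642 in the other libraries. It was the highest liver for 7 of the 10 genes, and for each of these 7 the value without it is given. No other library was highest for more than 1 of them, and GFP replicate 4 was the lowest for 3. Hepatocyte markers, 8 of 8 tested, summed to 61336 to 92293 CPM in Nudt7 livers, against 75149 to 95868 CPM in GFP livers. Of these 8 markers, 2 had a log2 fold change above 0 and 0 were called.

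**Figure D1:**
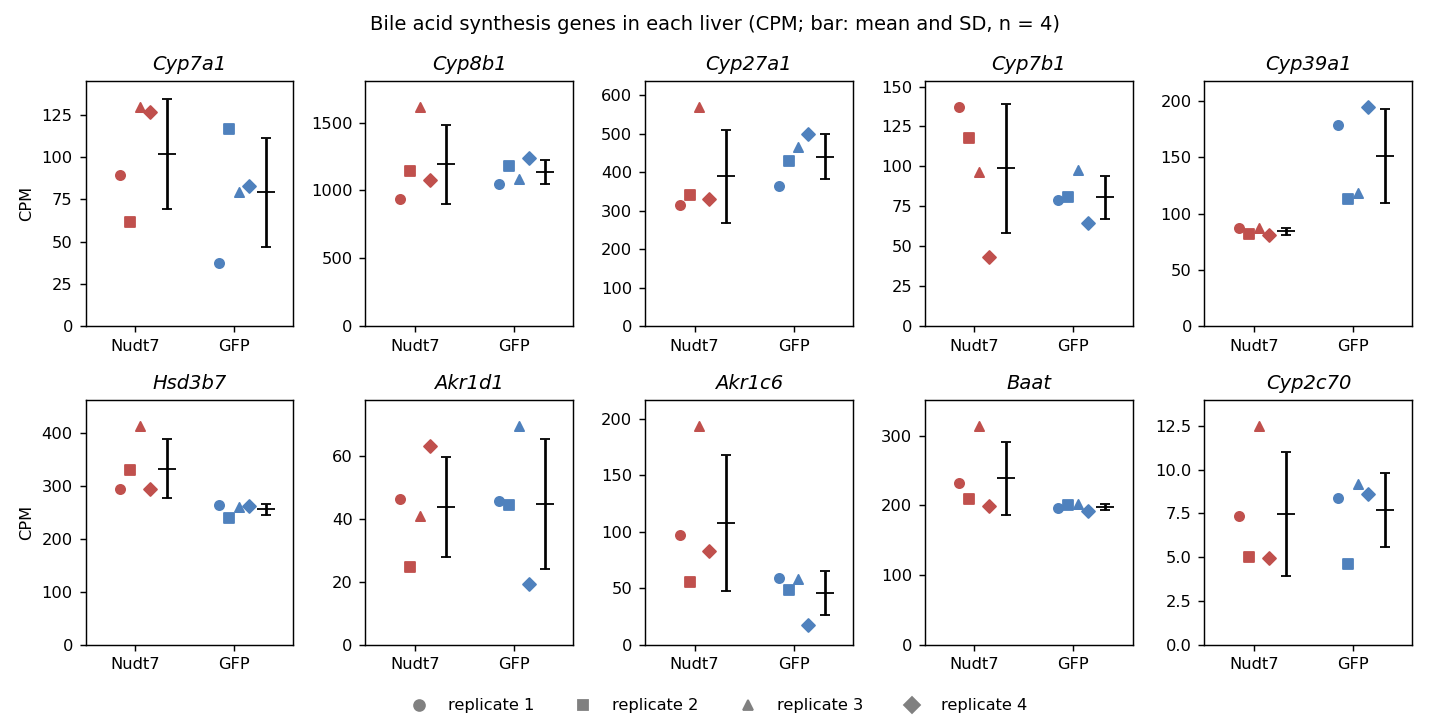
CPM of each of the 10 genes in every liver, with Nudt7 livers left and GFP livers right in each panel, and a bar with the mean and SD of 4 livers. The points of Cyp39a1 and Hsd3b7 do not overlap between the groups, and those of the other 8 genes do.

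The short promoter stretches printed next belong to the genes on which the words of 2 regulators of this pathway were found, HNF4A (encoded by Hnf4a) and LRH-1 (encoded by Nr5a2), whose transcripts are described below. They are the 150 bases before the RefSeq start of each gene on GRCm38.p6, written in the direction of transcription, with the words CAAAGTCCA (HNF4A) and CAAGGNCA (LRH-1) in capitals. The first gene, Cyp8b1, lies on the minus strand at chr9:121916306-121916455, Cyp2c70 on the minus strand at chr19:40187287-40187436, and Akr1c6 on the plus strand at chr13:4434193-4434342.
Cyp8b1: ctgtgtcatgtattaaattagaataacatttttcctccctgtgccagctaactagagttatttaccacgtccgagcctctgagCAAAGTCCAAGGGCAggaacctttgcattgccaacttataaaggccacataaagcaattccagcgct
Cyp2c70: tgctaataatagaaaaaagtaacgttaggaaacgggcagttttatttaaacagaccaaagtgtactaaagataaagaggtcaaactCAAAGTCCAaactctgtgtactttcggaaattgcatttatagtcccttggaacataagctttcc
Akr1c6: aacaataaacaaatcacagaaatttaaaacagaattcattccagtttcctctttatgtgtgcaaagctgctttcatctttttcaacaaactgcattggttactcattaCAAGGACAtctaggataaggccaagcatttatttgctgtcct

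In Cyp8b1 the HNF4A word ran from position -67 to -59 and overlapped an LRH-1 word, CAAGGGCA, at -60 to -53. The Cyp2c70 stretch held the HNF4A word at -64 to -56, and the Akr1c6 stretch held the LRH-1 word as CAAGGACA at -42 to -35. Positions count from the RefSeq starts. The GENCODE M21 starts of Cyp2c70 (40187333) and Akr1c6 (4434306) lie inside these stretches, and that of Akr1c6 falls within its word. RefSeq windows were matched for 6 of the 10 genes (Cyp8b1, Cyp27a1, Hsd3b7, Akr1d1, Akr1c6 and Cyp2c70); those of Cyp7a1, Cyp7b1, Cyp39a1 and Baat were not used here. Both strands of the 250 bases before the start were searched. The HNF4A word was in 2 of the 6 and in 0.384% of 32817 promoters of the same length, and the LRH-1 word was in 2 of the 6 and in 5.53% of them. A D-box word, TTATGNAA, which the clock output factors Dbp and Nfil3 can bind, was in Cyp27a1 (TTATGAAA, -60 to -53) and Akr1d1 (TTATGCAA, -8 to -1), and in 3.07% of all promoters. The TATA word TATAAA was in 3 of the 6 and in 12.4% of all promoters, and the E-box CACGTG was in 0 of the 6 and in 6.02%. A match describes letters in a window and not binding in these livers.

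Cyp7a1, the rate-limiting enzyme of the classic route (ENSMUSG00000028240.2, chromosome 4, 6265612 to 6275633, minus strand, GRCm38), stood at 89.3, 61.4, 129.6 and 127 CPM in Nudt7 livers and at 37.3, 116.5, 79.6 and 83.2 CPM in GFP livers. The groups overlapped, with the highest liver, Nudt7 replicate 3, 3.47 times the lowest, GFP replicate 1. Its means were 102 ± 32.6 CPM in Nudt7 livers, against 79.2 ± 32.5 CPM in GFP livers (SD over 4 livers each), and the log2 fold change came to 0.36 (SE 0.32, 95% confidence interval -0.34 to 1.07, edgeR adjusted p = 0.759). Without Nudt7 replicate 3 the log2 fold change of Cyp7a1 was 0.24 (SE 0.42), and leaving out 1 liver at a time it lay between 0.15 (without GFP replicate 1) and 0.62 (without GFP replicate 2).

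Cyp8b1, the sterol hydroxylase that directs the pathway to cholic acid (ENSMUSG00000050445.4, chromosome 9, 121914356 to 121916305, minus strand), stood at 937, 1142, 1613 and 1081 CPM in Nudt7 livers and at 1047, 1184, 1083 and 1241 CPM in GFP livers. The groups overlapped, and Nudt7 replicate 3 lay above every other liver. The log2 fold change was 0.07 (SE 0.17, interval -0.31 to 0.45, edgeR adjusted p = 0.925), and it was -0.10 (SE 0.12) without Nudt7 replicate 3.

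Cyp27a1, the mitochondrial enzyme that hydroxylates the side chain (ENSMUSG00000026170.6, chromosome 1, 74713574 to 74737892, plus strand), stood at 315, 342, 569 and 332 CPM in Nudt7 livers and at 363, 429.8, 467 and 500.5 CPM in GFP livers. The other 3 Nudt7 livers lay below every GFP liver, and Nudt7 replicate 3 lay above every one. This gave a log2 fold change of -0.18 (SE 0.20, interval -0.61 to 0.26, edgeR adjusted p = 0.805). Without Nudt7 replicate 3 it was -0.41 (SE 0.12, unadjusted p = 0.0054, adjusted p = 0.289). With another Nudt7 liver left out, the log2 fold change of Cyp27a1 was -0.071 (replicate 1), -0.12 (replicate 2) or -0.11 (replicate 4). With a GFP liver left out, it was -0.24 (replicate 1), -0.18 (replicate 2), -0.13 (replicate 3) or -0.090 (replicate 4). On the log2(TPM + 0.5) scale it was -0.35, where the median of all genes was itself -0.11. With Nudt7 replicate 3 left out, the groups did not overlap for 3 of the 10 genes (Hsd3b7 above, Cyp27a1 and Cyp39a1 below), against 9.31% of all genes tested.

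Cyp7b1, the oxysterol hydroxylase that follows Cyp27a1 in the alternative route (ENSMUSG00000039519.6, chromosome 3, 18071950 to 18243338, minus strand), stood at 137, 118, 96.3 and 43.5 CPM in Nudt7 livers and at 78.8, 80.9, 97.7 and 64.9 CPM in GFP livers. The Nudt7 livers held both the highest and the lowest value. In edgeR the log2 fold change was 0.29 (SE 0.28, interval -0.33 to 0.91, adjusted p = 0.778). Cyp7b1 had a log2 fold change of 0.11 without Nudt7 replicate 1 and 0.54 (SE 0.17, edgeR adjusted p = 0.421) without Nudt7 replicate 4. It was at 0.088 on the log2(TPM + 0.5) scale, beside a median of -0.11 over all genes.

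Cyp39a1, a hydroxylase of side-chain oxysterols (ENSMUSG00000023963.10, chromosome 17, 43667425 to 43751431, plus strand), stood at 87.1, 81.6, 86.9 and 80.99 CPM in Nudt7 livers and at 179, 113, 119 and 195 CPM in GFP livers. Every Nudt7 liver lay below every GFP liver, and the Nudt7 livers lay close together, with a coefficient of variation of 3.93% in Nudt7 livers and 27.4% in GFP livers. The mean was 84.2 ± 3.31 CPM in Nudt7 livers, against 151 ± 41.5 CPM in GFP livers (SD over 4 livers each). The difference on the log2 scale was -0.85 (SE 0.18, interval -1.24 to -0.45), with an unadjusted p = 0.000563 and an adjusted p = 0.126 in edgeR, and an adjusted p = 0.00437 in DESeq2. Over the alternatives tried the adjusted p ran from 0.00437 to 0.416, and only DESeq2 brought it under 0.05. Without Nudt7 replicate 3 the log2 fold change was -0.85 and the adjusted p = 0.151. The files listed 1 of the 4 transcripts that GENCODE M21 gives for the gene, a protein-coding one of 3053 bases.

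Hsd3b7, the dehydrogenase that opens the shared ring steps (ENSMUSG00000042289.11, chromosome 7, 127800604 to 127803802, plus strand), stood at 294, 329, 413 and 293 CPM in Nudt7 livers and at 263, 239.6, 259 and 261 CPM in GFP livers. All 4 Nudt7 livers were higher than the 4 GFP livers. The log2 fold change was 0.38 (SE 0.14, interval 0.08 to 0.68, unadjusted p = 0.0182, edgeR adjusted p = 0.481), and 0.27 (SE 0.10, adjusted p = 0.423) without Nudt7 replicate 3. Of the 31-base words in its transcripts, 54.8% also occur in the overlapping gene Gm49388 on the same strand, and the files assigned Gm49388 0 reads in 7 livers and 27.3 in GFP replicate 4. On the log2(TPM + 0.5) scale the log2 fold change of Hsd3b7 was 0.22, beside a median of -0.11 over all genes.

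Akr1d1, the reductase that gives bile acids their bent ring (ENSMUSG00000038641.12, chromosome 6, 37530173 to 37568815, plus strand), stood at 46.4, 24.7, 40.8 and 63.1 CPM in Nudt7 livers and at 45.5, 44.4, 69.5 and 19.3 CPM in GFP livers. The groups overlapped over nearly their whole range. This gave a log2 fold change of -0.02 (SE 0.36, interval -0.81 to 0.77, edgeR adjusted p = 0.990).

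Akr1c6, an aldo-keto reductase of the hydroxysteroid dehydrogenase cluster (ENSMUSG00000021210.16, chromosome 13, 4434306 to 4457877, plus strand), stood at 97.4, 55.2, 194 and 82.9 CPM in Nudt7 livers and at 58.8, 48.3, 57.8 and 16.9 CPM in GFP livers. The groups overlapped through Nudt7 replicate 2, and the highest liver (Nudt7 replicate 3) was 11.5 times the lowest (GFP replicate 4). In edgeR the log2 fold change was 1.24 (SE 0.44, interval 0.27 to 2.22, unadjusted p = 0.0178, adjusted p = 0.477). Without Nudt7 replicate 3 it was 0.81 (SE 0.46, unadjusted p = 0.126, adjusted p = 0.735). Akr1c6 shares 5.53% of its 31-base words with its neighbour Akr1c20, so reads between the paralogs are partly uncertain.

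Baat, the enzyme that joins bile acids to taurine or glycine (ENSMUSG00000039653.9, chromosome 4, 49489422 to 49506557, minus strand), stood at 233, 209.5, 315 and 199 CPM in Nudt7 livers and at 196, 201, 202 and 192 CPM in GFP livers. The 4 GFP livers lay close together, and Nudt7 replicate 3 was the highest of all. The coefficient of variation was 21.9% in Nudt7 livers, against 2.34% in GFP livers. The difference on the log2 scale was 0.27 (SE 0.15, interval -0.06 to 0.61, edgeR adjusted p = 0.664), and 0.13 (SE 0.09) without Nudt7 replicate 3.

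Cyp2c70, the mouse enzyme that makes muricholic acids (ENSMUSG00000060613.10, chromosome 19, 40153353 to 40187333, minus strand), was the least abundant of the 10. It stood at 7.34, 5.03, 12.5 and 4.95 CPM in Nudt7 livers and at 8.38, 4.6005, 9.20 and 8.61 CPM in GFP livers. The groups overlapped (log2 fold change -0.05, SE 0.31, interval -0.73 to 0.62, edgeR adjusted p = 0.973). Without Nudt7 replicate 3 the log2 fold change was -0.41 (SE 0.24, unadjusted p = 0.121, adjusted p = 0.732).

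**Figure D2:**
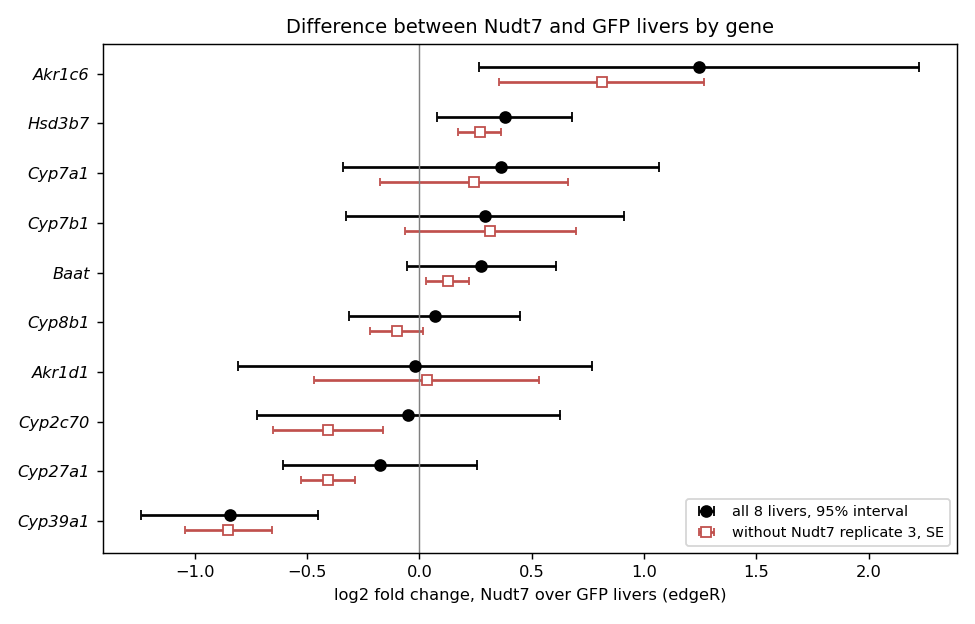
Log2 fold change of each gene, Nudt7 over GFP livers, from edgeR. Points for all 8 livers carry 95% confidence intervals, and points without Nudt7 replicate 3 carry bars of the SE. With all 8 livers the intervals of Cyp39a1, Hsd3b7 and Akr1c6 lie off 0; without that liver Akr1c6 moves to 0.81 and Cyp27a1 to -0.41.

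**Figure D3:**
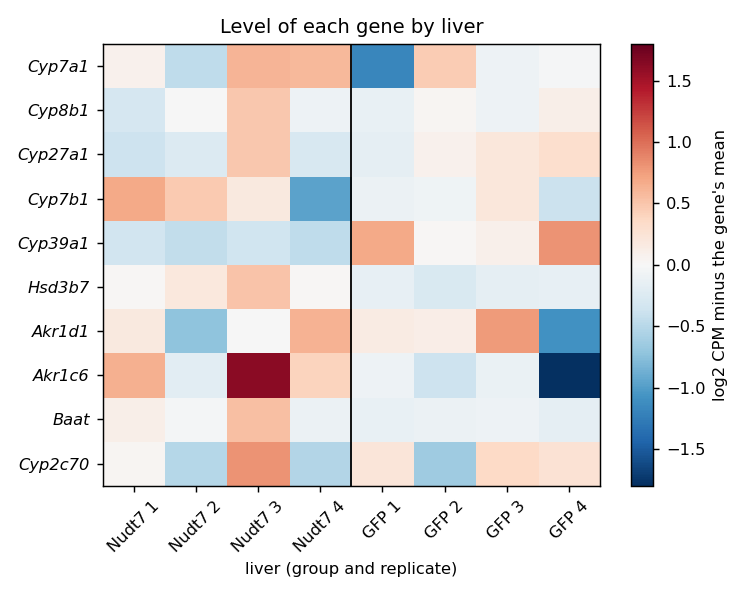
Log2 CPM of each gene in each liver minus the mean of the gene over the 8 livers, with Nudt7 livers left and GFP livers right. The column of Nudt7 replicate 3 is the highest of the 8 for 7 of the 10 genes, and Akr1c6 spans the widest range.

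Levels between genes were compared per length, in TPM (transcript abundance per length and library). The 10 genes summed to 1828 ± 118 TPM in Nudt7 livers, against 1865 ± 91.5 TPM in GFP livers (SD over 4 livers each). In Nudt7 livers the order was Cyp8b1 (773 ± 71.4 TPM), Cyp27a1 (289 ± 36.3), Hsd3b7 (268 ± 18.98), Baat (180.02 ± 14.8), Akr1c6 (123 ± 45.6), Cyp7b1 (71.8 ± 31.1), Cyp7a1 (46.6 ± 13.6), Cyp39a1 (39.8 ± 4.61), Akr1d1 (30.4 ± 12.2) and Cyp2c70 (7.95 ± 2.72). In GFP livers it was Cyp8b1 (827 ± 45.3 TPM), Cyp27a1 (369 ± 44.7), Hsd3b7 (229 ± 14.4), Baat (165 ± 10.3), Cyp39a1 (76.7 ± 18.9), Cyp7b1 (62.9 ± 12.2), Akr1c6 (58.7 ± 26.1), Cyp7a1 (35.5 ± 12.7), Akr1d1 (33.0 ± 15.7) and Cyp2c70 (8.42 ± 1.72). The first 4 genes and the last came in the same order in both groups, and Cyp39a1 stood at place 8 in Nudt7 livers, against place 5 in GFP livers. Neighbours from Baat down to Akr1d1 in Nudt7 livers, and from Cyp39a1 down to Akr1d1 in GFP livers, had overlapping ranges, as had Cyp27a1 and Hsd3b7 in Nudt7 livers.

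**Figure D4:**
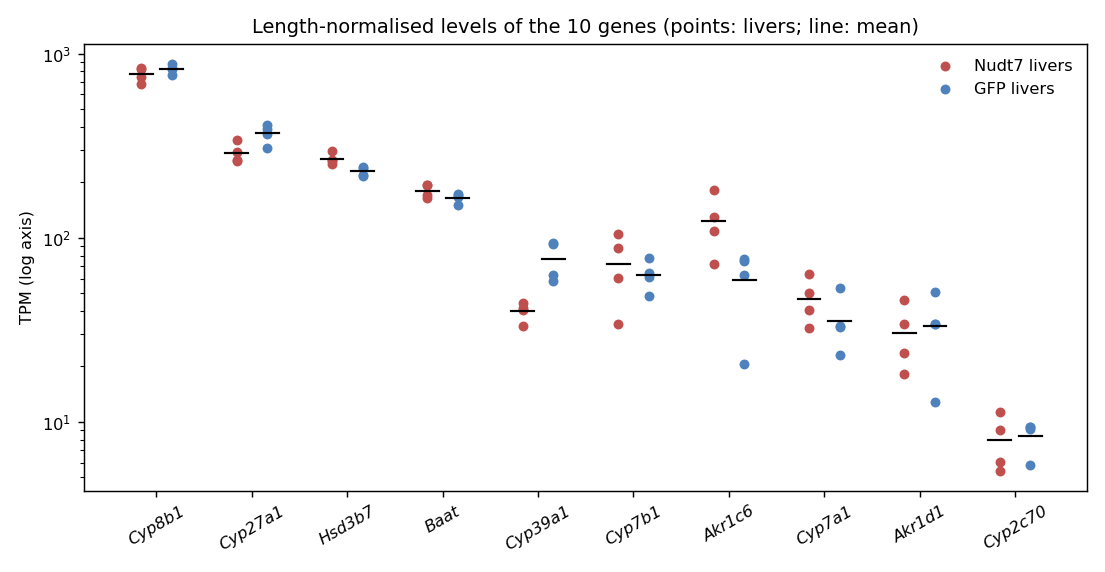
TPM of each gene on a log axis, as points for each liver of the Nudt7 and GFP groups, in order of level. Cyp8b1 lies highest, with means of 773 TPM (Nudt7) and 827 TPM (GFP), and Cyp2c70 lowest, with 7.95 TPM (Nudt7) and 8.42 TPM (GFP).

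Ratios within a liver, also in TPM, were computed for 5 pairs of genes as a description. Akr1c6 over Akr1d1 was 3.80, 3.96, 7.70 and 2.37 in Nudt7 livers and 2.24, 1.85, 1.47 and 1.61 in GFP livers. It was the only one of the 5 whose groups did not overlap, and its highest value was in Nudt7 replicate 3. How often the ratio of other genes parts the groups was not computed, so no share stands beside this. Cyp8b1 over Cyp7a1 had a median of 16.8 in Nudt7 livers and 25.4 in GFP livers, with overlapping ranges. Cyp39a1 over Cyp7b1, the later hydroxylases of the alternative route, had a median of 0.504 in Nudt7 livers and 1.204 in GFP livers, also overlapping through Nudt7 replicate 4.

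The main protein-coding transcript carried most of the TPM of Cyp7a1, Cyp27a1, Akr1d1 and Akr1c6. Cyp7a1-201, 4172 bases long, held 81.8% ± 7.10 of the gene's TPM in Nudt7 livers, against 87.2% ± 15.6 in GFP livers (SD over 4 livers each), and a processed transcript of 228 bases held the rest. The coding transcript Hsd3b7-201 held 62.6% ± 6.38 in Nudt7 livers, against 57.1% ± 6.61 in GFP livers. For Cyp2c70 the coding transcript held 63.1% ± 7.30 in Nudt7 livers, against 72.7% ± 11.3 in GFP livers, with most of the remainder on a retained-intron transcript of 769 bases. These differences are smaller than or close to the spread between livers.

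The other genes of the pathway were read from 8 lists of related genes, 102 gene names in all, of which 89 were tested. In Nudt7 livers 0 were called higher and 0 lower by edgeR. There were 20 at an unadjusted p under 0.05 (14 higher, 6 lower), 55 of 89 log2 fold changes were above 0, and the median was 0.09. Over all genes tested, 8.28% had an unadjusted p under 0.05 and 49.8% were above 0. The same shares stand beside the counts of each list below. DESeq2 called 3 of them, all higher: Abcd3, Cyp2c23 and Cyp2c50. Over all genes it called 88 higher and 64 lower, and only part of the 22643 genes with a DESeq2 p-value had an adjusted p.

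**Figure D5:**
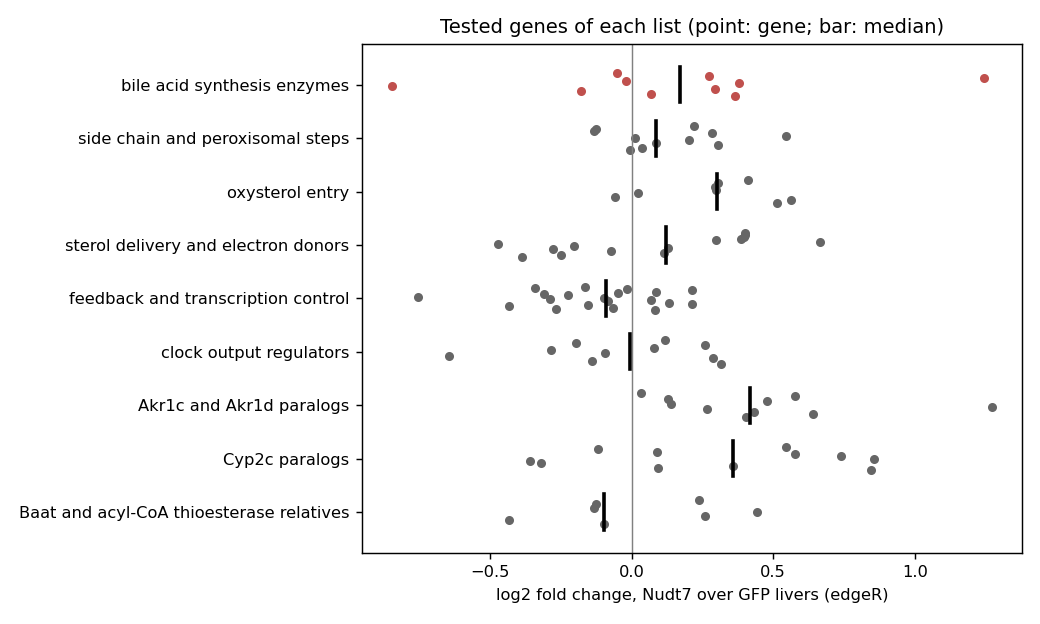
Log2 fold change, Nudt7 over GFP livers (edgeR), of every tested gene of each related list and of the bile acid synthesis enzymes, with a mark for the median of each list. Medians lie between -0.10 and 0.42. Under TMM scaling every tested gene of the list named Akr1c and Akr1d paralogs lies above 0. Akr1d1 itself, plotted with the bile acid synthesis enzymes, lies at -0.02.

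Of the 11 side chain and peroxisomal genes, 8 had a log2 fold change above 0 (median 0.09) and 2 had an unadjusted p under 0.05. Abcd3, which carries side-chain CoA esters into peroxisomes, stood at 981, 1046, 1052 and 859 CPM in Nudt7 livers and at 717, 634, 595 and 752 CPM in GFP livers. Its groups did not overlap (log2 fold change 0.55, SE 0.14, edgeR adjusted p = 0.218; DESeq2 adjusted p = 0.00415). Amacr, the racemase of the side chain, was at 0.30 (SE 0.14, unadjusted p = 0.0483) with all livers and at 0.18 (SE 0.09, unadjusted p = 0.072) without Nudt7 replicate 3. Acot8, a peroxisomal thioesterase, was at 0.28 (SE 0.17) with all livers and at 0.14 (SE 0.14) without that liver, and Pex5, the peroxisomal import receptor, at 0.22 (SE 0.13) and 0.14 (SE 0.10). The ligase Slc27a5, which makes the CoA esters that Baat uses, was at 559 ± 76.6 CPM in Nudt7 livers, against 561 ± 36.6 CPM in GFP livers, and the oxidase Acox2 at 208 ± 22.1 and 196 ± 12.1 CPM in Nudt7 and GFP livers (SD over 4 livers each).

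Oxysterol entry had 8 of its 9 genes tested, 7 above 0, with a median of 0.30 and 1 unadjusted p under 0.05, that of Ephx1, a microsomal epoxide hydrolase (0.41, SE 0.17, unadjusted p = 0.0298). Ephx1 stood at 507 CPM in Nudt7 replicate 3, and without that liver it was at 0.24 (SE 0.10, unadjusted p = 0.0399). Cyp3a11, a sterol-oxidising P450, stood at 2869.5, 1967, 4008 and 1955 CPM in Nudt7 livers and at 1568, 1974, 2458 and 1312 CPM in GFP livers, with overlap. Its log2 fold change was 0.56 (SE 0.26) with all livers and 0.32 (SE 0.22) without Nudt7 replicate 3. The sulfotransferase Sult2a8 was at 0.30 (SE 0.17) and Cyp46a1, the cholesterol hydroxylase best known from brain, at 0.51 (SE 0.32). Cyp46a1 was low, at 1.77 to 3.39 CPM in Nudt7 livers and 1.11 to 2.93 CPM in GFP livers. Ch25h, an oxysterol-forming hydroxylase, was below the filter on low counts.

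Sterol delivery and electron donors had 14 genes tested, 8 above 0 and 6 with an unadjusted p under 0.05. Cyb5a, an electron donor, was at 0.66 (SE 0.25) with all livers, among which Nudt7 replicate 3 stood at 792 CPM, and at 0.29 (SE 0.10) without that liver. Por, the reductase that feeds the microsomal P450s, stood at 546, 895, 757 and 879.95 CPM in Nudt7 livers and at 1032, 934, 956 and 1349 CPM in GFP livers, with every Nudt7 liver below every GFP liver (-0.47, SE 0.19, edgeR adjusted p = 0.528). Cyb5r3 and Cyb5b were at 0.39 (SE 0.16) and 0.30 (SE 0.12). Star, the mitochondrial cholesterol carrier, was at -0.39 (SE 0.26), with low levels of 2.03 to 2.93 CPM in Nudt7 livers and 2.13 to 4.52 CPM in GFP livers.

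Feedback and transcription control had 22 genes, of which 20 were tested, 6 above 0, and 3 with an unadjusted p under 0.05, all lower. Hnf4a, which encodes the hepatocyte nuclear receptor whose word stands in the Cyp8b1 stretch, was at 651, 694, 609 and 714 CPM in Nudt7 livers and at 919, 774, 844 and 1066 CPM in GFP livers, with no overlap (-0.43, SE 0.14, unadjusted p = 0.00925, edgeR adjusted p = 0.422). Ppargc1a, the coactivator of fasting, was at -0.75 (SE 0.32) and Mafg at -0.31 (SE 0.14), both with overlap between the groups. Without Nudt7 replicate 3, Ppargc1a was at -0.69 (SE 0.44, edgeR unadjusted p = 0.162) and Mafg at -0.26 (SE 0.13, unadjusted p = 0.067). Hnf4a was at -0.38 (SE 0.13, unadjusted p = 0.0105) without that liver. The FXR gene Nr1h4 averaged 132 ± 19.2 CPM in Nudt7 livers, against 125 ± 11.9 CPM in GFP livers (0.08, SE 0.14), Nr5a2 47.6 ± 12.4 and 49.9 ± 5.30 CPM in Nudt7 and GFP livers (-0.07, SE 0.17), and Fgfr4 20.8 ± 3.14 and 19.9 ± 3.24 CPM (0.07, SE 0.16). Nr0b2 varied widely between livers, from 1.499 to 5.78 CPM in Nudt7 livers and from 1.35 to 7.41 CPM in GFP livers (-0.27, SE 0.54). Klb was at -0.29 (SE 0.15) with all livers and at -0.19 (SE 0.14) without Nudt7 replicate 3.

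Of the 10 clock output regulators, which carry the daily rhythm that Cyp7a1 follows, 5 were above 0 and 1 had an unadjusted p under 0.05. That was Nfil3, a repressor at D-box words, with 17.9, 14.3, 19.3 and 24.6 CPM in Nudt7 livers and 37.1, 30.01, 26.9 and 25.3 CPM in GFP livers, without overlap (-0.65, SE 0.18, unadjusted p = 0.00349, edgeR adjusted p = 0.289). Dbp, an activator at the same words, was at 0.32 (SE 0.26) with all livers and at 0.18 (SE 0.27) without Nudt7 replicate 3. Nr1d2 was at -0.29 (SE 0.19) with all livers and at -0.16 (SE 0.17) without that liver, and Hlf at 0.29 (SE 0.14) and 0.41 (SE 0.10). The labels give no hour of collection.

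The list of Akr1c and Akr1d paralogs held Akr1c genes beside Akr1a1, Akr1e1 and Akr1b genes. All 10 tested genes of the 14 listed had a log2 fold change above 0 with all 8 livers under TMM scaling. They ran from 0.03 (Akr1b10) to 1.27 with a median of 0.42, and 3 had an unadjusted p under 0.05. Without Nudt7 replicate 3, Akr1c19 was at -0.012 (SE 0.33) and Akr1b3 at -0.084 (SE 0.21). Akr1b10 was at -0.054 with the length trend removed, and Akr1e1 at -0.050 with the effective length offset. The others on the list stayed above 0 in these settings. Akr1c20 was at 1.27 (SE 0.43, unadjusted p = 0.0135), with 0.81 (SE 0.38) without Nudt7 replicate 3. Without that liver its unadjusted p was 0.0639. Akr1a1 was at 0.48 (SE 0.20) with all livers and at 0.23 (SE 0.10) without Nudt7 replicate 3, and Akr1c12 at 0.40 (SE 0.18, unadjusted p = 0.0458) and 0.21 (SE 0.12, unadjusted p = 0.102). Akr1c12 and Akr1c13 share 39.2% and 33.7% of their 31-base words, so their reads are partly uncertain. The lowest of the list, 0.03, is smaller than the shift of -0.11 that the log2(TPM + 0.5) scale gave the median of all genes. The 11 tested Cyp2c paralogs had 8 above 0 and a median of 0.36. Cyp2c23, an arachidonate epoxygenase, stood at 68.0, 52.9, 84.2 and 61.9 CPM in Nudt7 livers and at 33.99, 35.8, 47.8 and 31.3 CPM in GFP livers, without overlap (0.85, SE 0.17, edgeR adjusted p = 0.111; DESeq2 adjusted p = 0.00174). Cyp2c50 was at 0.74 (SE 0.19, edgeR adjusted p = 0.233; DESeq2 adjusted p = 0.0259) and shares 29.2% of its words with other genes. Of the 7 tested Baat and thioesterase relatives, 3 were above 0, and Acnat2, an acyltransferase related to Baat, was at -0.43 (SE 0.15, unadjusted p = 0.0141); it shares 37.1% of its 31-base words with Acnat1, so reads of the pair are partly uncertain.

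Markers of other cells and zones were compared beside these values. Markers of pericentral hepatocytes, the zone in which Cyp7a1 is known to be enriched, summed to 6769 to 9708 CPM in Nudt7 livers, against 6965 to 7422 CPM in GFP livers, with 7 of 8 log2 fold changes above 0 and 0 called. Periportal markers summed to 5329 to 6824 CPM in Nudt7 livers, against 7169 to 8154 CPM in GFP livers, without overlap, with 2 of 8 above 0. Cholangiocyte markers summed to 31.8 to 42.5 CPM in Nudt7 livers, against 17.4 to 29.4 CPM in GFP livers, and sinusoidal endothelial markers to 310 to 336 and 349 to 397 CPM in Nudt7 and GFP livers, both without overlap. The other lists overlapped between the groups. Kupffer cell and macrophage markers summed to 105 to 232 CPM in Nudt7 livers, against 117 to 194 CPM in GFP livers. Stellate cell markers summed to 234 to 261 CPM in Nudt7 livers, against 228 to 272 CPM in GFP livers. Lymphocyte and neutrophil markers summed to 9.06 to 15.6 and 7.82 to 13.9 CPM in Nudt7 and GFP livers, and those of adipocytes, pancreas and gut to 2.35 to 3.53 and 1.84 to 6.22 CPM. The part of cell types and zones in the values of the 10 genes was not tested.

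For 3 of the genes, the tested genes with the most similar pattern over the 8 livers were found among 7940 genes with a mean of at least 10 CPM, by the root-mean-square difference of centred log2 CPM. Nearest to Cyp39a1 were Rhobtb1 (0.184), Slc8b1 (0.185) and Slc25a22 (0.186), against a spread of Cyp39a1 itself of 0.471. Nearest to Cyp7a1 were Gpc1 (0.271), Zfyve19 (0.348) and Pmvk (0.365), against its own spread of 0.561. Nearest to Akr1c6 were Mup-ps16 (0.333), Mup19 (0.345) and Inmt (0.375), against its own spread of 0.924; all 31-base words of Mup19 also occur in other genes. The libraries share their depth and length trends across genes, and the likeness is a description over 8 livers.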

How the data were processed

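Liver mRNA of 4 Nudt7 and 4 GFP mice was measured by stranded RNA sequencing, one file per mouse. FastQC, Salmon, DESeq2 and the build GRCm38 are named in the submitters' processing notes; for Salmon, the version, index and strand options were not given in the sources used here. Each transcript has, per the file headers, the authors' deposited estimated count (NumReads, not normalized), TPM and effective length. Transcripts were named from GENCODE M21 (107987 of 109282, 98.8%; the unnamed held 0.552% to 1.06% of reads), summed per gene and rounded. edgeR 4.0.16 (R 4.3.3) tested 13678 genes (filterByExpr, TMM, robust quasi-likelihood, two-sided, Benjamini-Hochberg, 0.05); limma 3.58.1 and DESeq2 1.42.0 were alternatives. CPM use TMM-scaled sizes. The fit was tested on simulated data with known changes.

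The members, related lists, markers and named-gene rule (the 10 genes, up to 4 per list with the smallest adjusted p, 3 most similar genes for each of 3 members, and a set of regulators given whatever their result) were chosen with earlier results of these data known. The count of non-overlapping genes without Nudt7 replicate 3 was added after the data were seen. Replicate numbers follow accession order and pair nothing. Mice are taken as separate from the labels, which give no batch. Reads made by PCR are not independent molecules, and intervals come from the spread between livers. The listed names Diet1 and Cyp2c44 matched no gene symbol of GENCODE M21. Other names of these genes were not looked up, so such a gene can stand here under another symbol.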

Additional observations from a re-analysis of the deposited data

Results flagged for a closer look

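Among the 120 gene-by-group sets of 4 livers that were looked at (60 genes), 9 had 1 liver far from the other 3 by Dixon's 95% criterion. For independent sets chance gives about 1 in 20. That rate need not hold here, because the genes share the same libraries and some were named for their values in these livers. In Nudt7 replicate 3, Cyp27a1 was at 569 CPM (others 315 to 342), Amacr at 122 (84.4 to 90.3), Ephx1 at 507 (321 to 339), Cyb5a at 792 (344 to 371), Akr1c13 at 81.9 (27.3 to 36.2) and Nudt7 at 3569 (1301 to 1599). In GFP replicate 4, Akr1c13 was at 22.4 CPM (others 30.7 to 31.9) and Acot6 at 4.61 (6.02 to 6.19). In GFP replicate 1, Gpc1 was at 5.95 CPM (others 13.4 to 14.3). Of the 9, 6 were in Nudt7 replicate 3, the library that also stood apart over all genes; what sets it apart was not tested.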

How the results depend on the processing

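No paired analysis was possible because the labels give no replicate numbers; those used here follow accession order and pair nothing. Over all genes, 6 were higher with all livers and edgeR; the count was 15 with no filter on low counts, 24 with the length trend removed, 88 in DESeq2, 58 in limma-voom with sample weights, and 1 to 8 leaving out 1 liver at a time. The 10 lower were 6 with an effective length offset, 17 with the length trend removed, 64 in DESeq2, 5 in limma-voom, 42 with sample weights, and 1 to 12 leaving out 1 liver. Of the bile acid genes, DESeq2 called 1 lower (Cyp39a1), against 0. Of the related genes, 1 was higher with no filter, 1 with the length trend removed, 3 in DESeq2 and 2 with sample weights, against 0. Of the values near 0, some changed sign. The log2 fold change of Cyp8b1 was -0.093 with sample weights, -0.10 on log2(TPM + 0.5) and on log2(TPM + 0.1), and -0.10 to 0.18 leaving out 1 liver. The log2 fold change of Akr1d1 was 0.040 with the length offset, 0.031 in limma-voom and -0.26 to 0.29 leaving out 1 liver. The log2 fold change of Cyp2c70 was 0.090 with the length offset and -0.41 to 0.11 leaving out 1 liver. The log2 fold change of Nr1h4 was -0.027 with sample weights, and the log2 fold change of Slc27a5 was 0.0053 with RLE factors and 0.0092 in DESeq2. Leaving out 1 liver, the log2 fold change of Nr0b2 was -0.84 to 0.43, the log2 fold change of Nr5a2 was -0.23 to 0.067, the log2 fold change of Fgfr4 was -0.0038 to 0.16, and that of Slc27a5 was -0.093 to 0.059. On the log2(TPM) scales the median of all genes moved to -0.11 and -0.12. The cause of these moves was not tested. Cyp2c70 and Akr1d1 varied by 47.6% and 36.2% between Nudt7 livers, against 27.2% and 45.9% between GFP livers (coefficient of variation).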
